A study of Mus musculus with 5 samples.

Results

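Imprinted genes of growth control were followed in cells derived from mouse embryonic stem cells. The 10 genes listed were H19, Igf2, Igf2r, Dlk1, Meg3, Peg3, Peg10, Grb10, Mest and Plagl1. They were taken by symbol from the array's annotation, using probe sets that carry a single gene symbol. This gave 9 of the 10 genes, with 30 probe sets, out of 18193 genes named on the array. H19 is not analysed here, since its symbol appears only together with that of a microRNA gene on 1 probe set. Of several probe sets for a gene, the brightest by its mean over the 5 arrays is called the main one, and the others are given beside it.

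Mouse ES cells were differentiated on plates coated with gelatin, with the pancreas as the intended fate. The 5 groups, of 1 array each, were controls without MPA at day 5, day 6 and day 8, and cells given 2 µM MPA from day 5 and collected at day 6 (1 day of exposure) or at day 8 (3 days). The labels name no cell line, strain or genotype, and they do not write MPA out. With 1 array per group there is no spread between cultures, so a difference between a pair of arrays has no replicate check, and the number of arrays limits the precision. Values are linear signals of the Affymetrix array, scaled alike on every array. A signal under 86.8, which is the overall median once control probe sets are set aside, was raised to that floor before the log2 was taken. Where one array of a pair lay at the floor, the fold is the least that it can be, which "at least" marks.

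Between 46.7% and 51.9% of the probe sets lay above the floor on an array. The 3'/5' signal ratio of the Gapdh control probe sets, a sign of RNA integrity, ran from 1.08 at day 5 to 1.57 with MPA at day 8, and that of Actb from 2.08 at day 5 to 3.06 with MPA at day 6, with 2.81 and 2.71 on the day 8 arrays. Of 7 pancreatic progenitor markers on the array, 4 to 6 lay above the floor, and Pdx1, which defines that fate, did so only with MPA at day 8, at a signal of 90.4. The summed signal of 8 pluripotency markers was 33254 at day 5 and between 2919.8 and 5352 on the other arrays. In the day 8 control Sox2 made up 4784 of the 5352.

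An imprinted gene is expressed mainly from the copy inherited from the mother or mainly from that of the father, because DNA methylation set in the germ line marks one copy. Many of these genes act on growth of the embryo and placenta. Paternally expressed genes often promote growth, as does Igf2, and several maternally expressed ones restrain it, as do Igf2r and Grb10. Imprinted genes lie in clusters, such as that of Igf2 and H19, that of Dlk1 and the non-coding RNA Meg3, and that of Igf2r and the antisense RNA Airn. The array measures the sum of both parental copies and does not tell them apart.

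In the controls, 4 of the 9 members were 2-fold or more higher at day 8 than at day 6. They were Dlk1, Plagl1, Peg3 and Igf2, which like Mest and Peg10 are known as paternally expressed genes, and 0 members were 2-fold or more lower. That is 44.4% of the members, where 7.07% of the 12824 genes measured were 2-fold or more higher at this step and 6.43% were 2-fold or more lower (13.5% either way). The median log2 difference was 0.81 over the members and 0.02 over all genes measured. No test applies to a pair of arrays. The members were listed with earlier results of these data known, and the day 5 to day 8 comparison below shares its day 8 array with this one.

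Dlk1, which encodes a transmembrane protein related to Notch ligands and marks immature cells, had the largest difference of the 9. Its signal was 49.3 at day 5, 101.6 (control) and 97.1 (MPA) at day 6, and 1258 (control) and 1425 (MPA) at day 8. The day 5 array lay under the floor, both day 6 arrays lay just above it, and both day 8 arrays were far above. From day 6 to day 8 the control signal was 12.4-fold higher, and against day 5 it was at least 14.5-fold higher. The second Dlk1 probe set lay under the floor on all 5 arrays, so these values rest on 1 probe set. The size of the difference also rests on the floor, since with a floor at the 65th percentile its log2 was 2.83 in place of 3.63.

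Plagl1, the gene of a zinc finger transcription factor that acts on other imprinted genes, had a signal of 6863 at day 5, 4769 (control) and 4477 (MPA) at day 6, and 27410 (control) and 18510.3 (MPA) at day 8. Both day 8 arrays stood above all earlier ones. The control difference from day 6 to day 8 was 5.75-fold, and that from day 5 to day 8 was 3.99-fold. Its other 2 probe sets, both dimmer, were also higher at day 8 than at day 6, by a log2 of at least 1.70 and 0.79, with the day 6 array under the floor.

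Peg3, the gene of a zinc finger protein active in embryonic and placental tissues, had a signal of 16294 at day 5, 15459 (control) and 20819 (MPA) at day 6, and 51622 (control) and 66461 (MPA) at day 8. The day 8 control was 3.34-fold above that of day 6. The other 2 probe sets above the floor gave log2 differences of 1.93 and 2.36 for the same step, and 2 further probe sets lay under the floor throughout.

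Igf2 encodes insulin-like growth factor 2, a growth factor of the fetus. Its signal was 500.9 at day 5, 580.5 (control) and 587 (MPA) at day 6, and 1481 (control) and 2246 (MPA) at day 8. The 3 early arrays lay close together, the day 8 control was 2.55-fold above the day 6 control, and the array with MPA at day 8 was the highest. A second, dim Igf2 probe set with signals of 3.46 to 118 gave a log2 difference of at least -0.44 for the control step from day 6 to day 8. This was opposite to the main one, and the day 8 array lay under the floor.

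**Figure D1:**
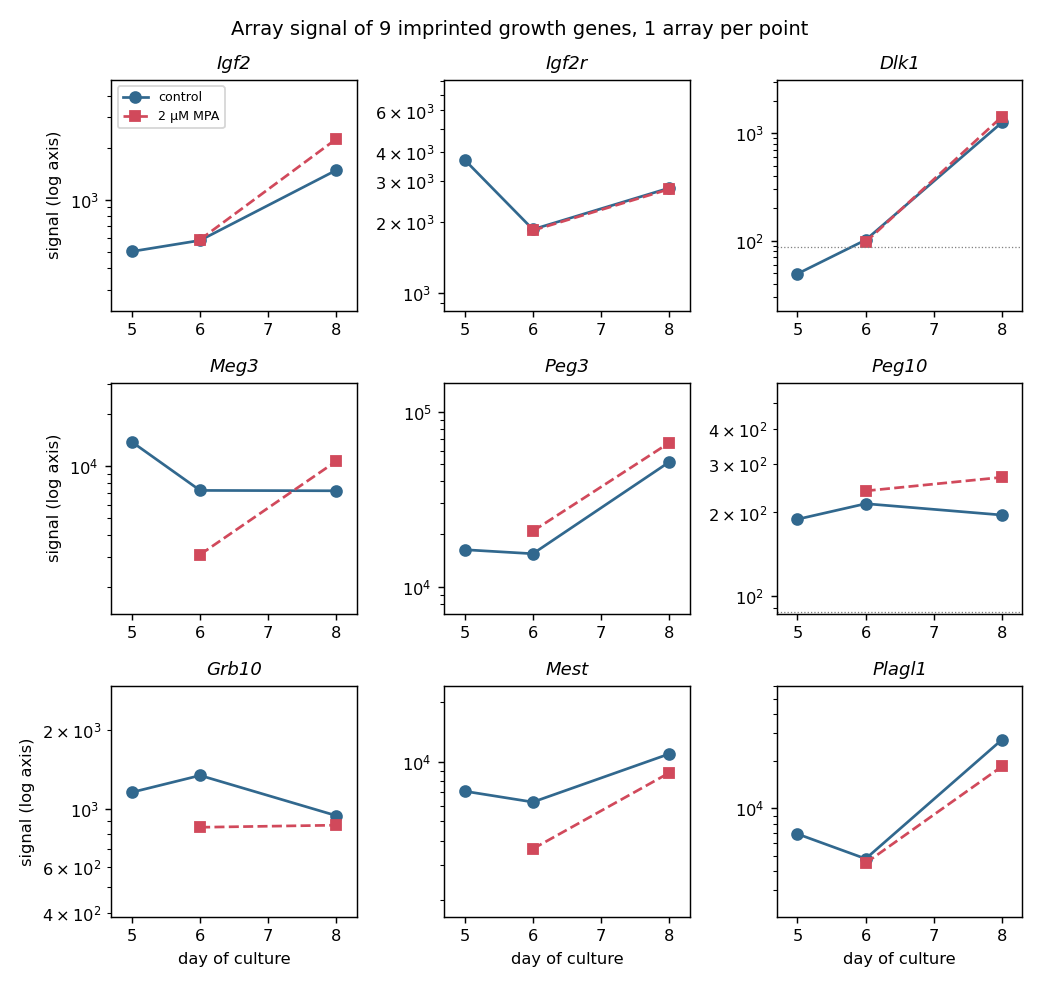
Array signal (log axis, a separate range in each panel) of the main probe set of each of 9 members against the day of culture, with 1 array per point, controls as circles and 2 µM MPA as squares; the dotted line is the floor of 86.8. Dlk1, Plagl1, Peg3 and Igf2 are higher on both day 8 arrays than on all earlier ones, and Meg3 is lowest with MPA at day 6, at 3088.

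The start regions of the members that were higher at day 8 and of Meg3 are shown because imprinting acts through methylation of CG dinucleotides, which are in capitals here. Each window runs from 250 bases before to 50 bases after a transcript start, taken from RefSeq on GRCm38.p6, 5′ to 3′ on the strand of the gene. Igf2 has 4 such windows, which the array does not tell apart, and none of them is printed. Meg3 has 2, which the array does not tell apart either, and the first is printed.
Dlk1, chr12:109452573-109452872, plus strand: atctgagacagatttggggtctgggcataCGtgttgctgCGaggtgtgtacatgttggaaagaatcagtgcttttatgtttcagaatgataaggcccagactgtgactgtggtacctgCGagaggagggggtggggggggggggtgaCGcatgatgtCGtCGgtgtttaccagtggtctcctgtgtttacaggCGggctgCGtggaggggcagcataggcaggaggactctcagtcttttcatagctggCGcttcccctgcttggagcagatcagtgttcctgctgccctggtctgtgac
Meg3, chr12:109540746-109541045, plus strand: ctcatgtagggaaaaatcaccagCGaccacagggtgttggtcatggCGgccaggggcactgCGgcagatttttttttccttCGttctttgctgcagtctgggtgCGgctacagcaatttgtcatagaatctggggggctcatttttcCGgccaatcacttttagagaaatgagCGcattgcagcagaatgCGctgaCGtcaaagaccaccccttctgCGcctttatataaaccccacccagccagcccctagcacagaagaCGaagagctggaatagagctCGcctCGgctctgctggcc
Peg3, chr7:6730370-6730669, minus strand: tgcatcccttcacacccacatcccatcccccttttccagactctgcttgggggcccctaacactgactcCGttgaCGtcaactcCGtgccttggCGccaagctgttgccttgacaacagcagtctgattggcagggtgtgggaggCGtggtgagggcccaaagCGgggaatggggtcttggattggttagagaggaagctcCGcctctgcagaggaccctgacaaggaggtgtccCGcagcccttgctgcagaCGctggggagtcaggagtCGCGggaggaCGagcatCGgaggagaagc
Plagl1, chr10:13090582-13090881, plus strand: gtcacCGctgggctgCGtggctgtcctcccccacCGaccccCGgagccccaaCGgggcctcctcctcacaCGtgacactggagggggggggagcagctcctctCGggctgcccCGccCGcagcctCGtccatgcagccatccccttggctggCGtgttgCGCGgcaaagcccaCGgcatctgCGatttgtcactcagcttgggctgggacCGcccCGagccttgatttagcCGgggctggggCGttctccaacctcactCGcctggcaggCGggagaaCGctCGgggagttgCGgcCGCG

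These 4 windows hold 9, 13, 13 and 26 CG dinucleotides in the order shown. Over 32851 RefSeq windows of this length the median is 7 and the quartiles are 3 and 20. Of the windows shown, only that of Plagl1 lies outside these quartiles. Of the 9 members, 8 have windows in the table, 15 in all, with 1 to 45 CG dinucleotides each. The Igf2 windows hold 2, 14, 24 and 7, the Igf2r window 34, the first Grb10 window 45 and the second Meg3 window 1. The motif TATAAA was searched on both strands and found in 1 of the 15 windows, that of Meg3 shown above, and 13.6% of all windows hold it. There it starts 25 bases before the transcript start, and its match on the other strand, 29 bases before, overlaps it. The YY1 motif GCCATNTT was found in 0 of the 15 windows (6.05% of all windows hold it), and so was a core motif of CTCF (0.0365%). A match describes the letters in this window only, and methylation was not measured.

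The other 5 members were less than 2-fold apart between the day 6 and day 8 controls. Mest, which encodes a protein of the alpha/beta hydrolase family, had a signal of 7089 at day 5, 6252 (control) and 3635 (MPA) at day 6, and 10930.3 (control) and 8773 (MPA) at day 8. It was 1.75-fold higher at day 8 than at day 6 in the controls, and both day 8 arrays stood above all earlier ones.

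Igf2r, the receptor that takes up IGF2 for breakdown, had a signal of 3690.0 at day 5, 1862 (control) and 1843 (MPA) at day 6, and 2798 (control) and 2768 (MPA) at day 8. It was lowest on both day 6 arrays and highest at day 5. The control at day 8 was above that at day 6 by a log2 of 0.59. Its second probe set gave the same directions for each step, with log2 differences of -0.34 from day 5 to day 6 and 0.40 from day 6 to day 8.

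Grb10, an adaptor that restrains insulin and IGF receptor signalling, had a signal of 1156 at day 5, 1340.4 (control) and 849 (MPA) at day 6, and 940.4 (control) and 865 (MPA) at day 8. All 5 values lay within 1.58-fold of each other. Peg10, derived from a retrotransposon and needed in the placenta, had signals of 189, 215, 239.5, 196 and 268 in the same order, within 1.42-fold of each other.

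Meg3, a maternally expressed long non-coding RNA, did not share the order of the 4 genes above. Its signal was 13860 at day 5, 7263 (control) and 3088 (MPA) at day 6, and 7228 (control) and 10741 (MPA) at day 8. The day 5 array was the highest and the array with MPA at day 6 the lowest. On this probe set the log2 difference between the controls of days 6 and 8 was -0.01 (0.08 with quantile normalization). Over that step 9 of the 11 Meg3 probe sets were higher, 2 of them 2-fold or more, and 2 were lower. They ran from a log2 of -0.07 to 1.70, and the mean over probe sets was 0.52. From day 5 to day 6 the main probe set was 1.91-fold lower, and all 11 Meg3 probe sets were lower at this step, with log2 differences from -2.37 to -0.79.

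From day 5 to day 6 in the controls, 0 of the 9 members were 2-fold or more apart, where 5.46% of 12611 genes were 2-fold or more higher and 4.40% were 2-fold or more lower (9.86% either way). The member medians were close to those of all genes, at a log2 of -0.08 and 0.02. Igf2r lay nearest the 2-fold line, at 1.98-fold lower. With each array centred on its median its log2 difference was -1.03 and it passed that line. From day 5 to day 8 the same 4 members as from day 6 to day 8 were 2-fold or more higher, where 9.61% of 12784 genes were so and 7.27% were 2-fold or more lower (16.9% either way). The folds over this longer interval were at least 14.5 for Dlk1, 3.99 for Plagl1, 3.17 for Peg3 and 2.96 for Igf2. Meg3 was 1.92-fold lower over it, and with median centring its log2 difference was -1.02, past 2-fold.

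Markers of neural, mesenchymal and muscle cells were higher in the day 8 control together with these members. All 8 mesenchyme markers were higher at day 8 than at day 6, 4 of them 2-fold or more, and their summed signal was 1789 at day 5, 3631 at day 6 and 12702 at day 8. The 8 neural markers were likewise all higher, 7 of them 2-fold or more, with sums of 2099, 2657 and 11233. Of the cardiac and smooth muscle markers, 5 of 7 measured were 2-fold or more higher and the other 2 were lower, with sums of 6509.69, 2429 and 27555, and Tnnt2 lay under the floor on all 5 arrays.

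The other marker lists were mixed over this step. Of the yolk sac and hepatic endoderm markers 4 of 7 were higher, and their sum of 1049.6 at day 6 and 2317 at day 8 was carried by Ttr and Rbp4. Of the trophoblast markers 4 of 5 were higher and 0 by 2-fold or more, with Krt7 making up 1410 of the day 8 sum of 2206, and Elf5, which defines that lineage, lay under the floor on all arrays. Against day 5, Cdx2 of this list was lower by a log2 of -2.59. Of the blood and endothelium markers 1 of 4 was higher, with sums of 673 and 484. Of the definitive endoderm markers 3 of 7 were higher and 3 were 2-fold or more lower. Against day 5, 6 of these 8 were 2-fold or more lower at day 8, with a list median of -1.97, while Foxa1 was higher by a log2 of 3.15, and the sums were 15645 and 11056. The 3'/5' ratio was 1.19 in the day 6 control and 1.55 in the day 8 control for Gapdh, and 3.04 and 2.81 for Actb. The part of these in the member differences was not tested, and in bulk cells fewer cells of a type and less RNA per cell cannot be told apart.

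The comparison of MPA with its control asks which members differed after 1 and after 3 days of exposure. At day 6, 1 of the 9 members was 2-fold or more apart, Meg3, and it was lower with MPA. At day 8, 0 of the 9 were 2-fold or more apart. The background at day 6 was 4.02% of 12240 genes 2-fold or more higher and 3.15% lower (7.17% either way), and at day 8 it was 3.72% of 12599 genes higher and 3.18% lower (6.91% either way). The member share at day 6 was 11.1%. With each array centred on its median, the day 6 background turned from 492 genes higher and 385 lower to 388 higher and 479 lower. The median log2 difference over the members was -0.07 at day 6 and 0.18 at day 8, against 0.02 and -0.02 over all genes measured.

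**Figure D2:**
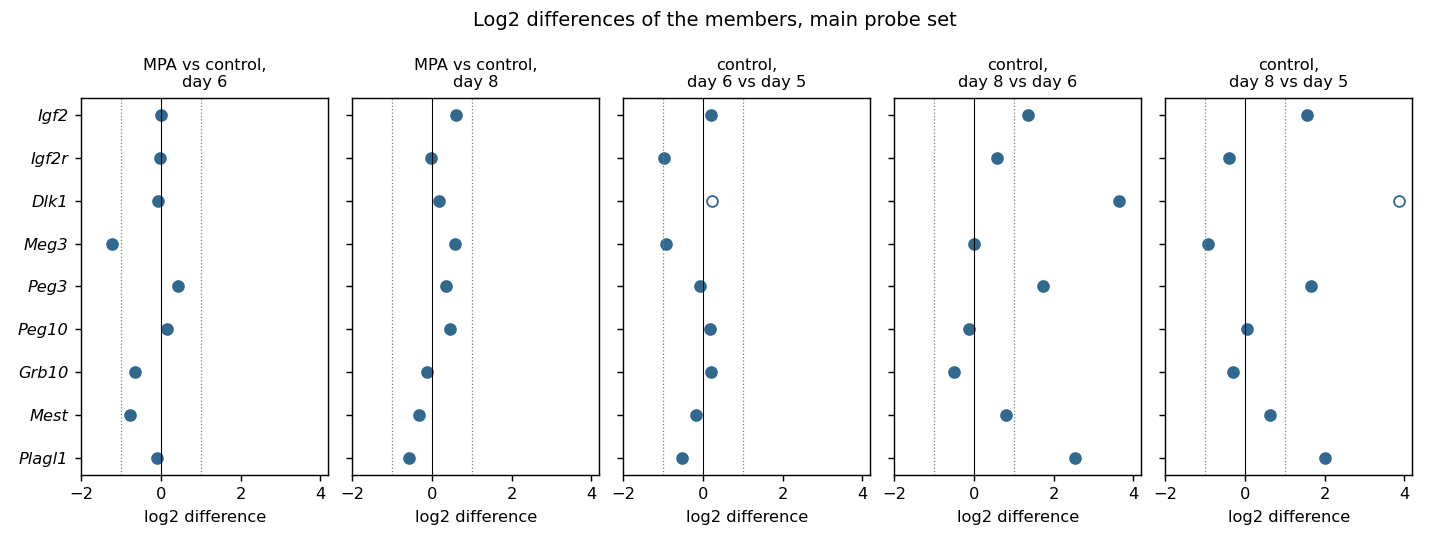
Log2 difference of the main probe set of each of 9 members in 5 comparisons of 1 array with 1 array; open points are lower bounds, and dotted lines mark 2-fold. In the controls from day 6 to day 8, Dlk1, Plagl1, Peg3 and Igf2 lie to the right of the 2-fold line, and with MPA at day 6 Meg3 alone lies beyond it, to the left.

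Of the growth factor and its receptor, Igf2 was 1.52-fold higher with MPA at day 8, and Igf2r was within 1.01-fold of its control at both days. At day 6 Igf2 was also within 1.01-fold of its control, and its sign there turned with quantile normalization and with median centring. The dim second Igf2 probe set was lower with MPA at day 6, by a log2 of at least -0.44, with the MPA array under the floor. At day 8 it was higher, by at least 0.13. Peg3 was higher with MPA at both days, 1.35-fold and 1.29-fold, and each of its 3 probe sets above the floor was higher at both days, by a log2 of 0.36 to 0.89. Peg10, on its 1 probe set, was 1.11-fold higher after 1 day and 1.37-fold higher after 3 days.

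Mest and Grb10 were lower with MPA at both days. Mest, on its 1 probe set, was 1.72-fold lower after 1 day and 1.25-fold lower after 3 days. Grb10 was 1.58-fold lower and 1.09-fold lower, and at day 8 a dim second probe set, under the floor in the control, was higher by a log2 of at least 0.31. The main Plagl1 probe set was 1.07-fold lower after 1 day and 1.48-fold lower after 3 days. The second Plagl1 probe set, with signals from 49.4 to 417, was higher with MPA at both days, by a log2 of at least 0.79 and of 0.57, so the probe sets of this gene disagree. Dlk1 lay within 1.13-fold of its control at both days.

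Cell type markers also differed with MPA. Of the neural markers 6 of 7 were 2-fold or more lower at day 6 and 6 of 8 at day 8, with sums of 2657 (control) and 1152 (MPA) at day 6, then 11233 and 2368. Of the cardiac and smooth muscle markers 3 of 6 were higher at day 6 and 5 of 5 at day 8, with day 8 sums of 27555 and 54548. Of the mesenchyme markers 4 of 8 were higher at day 6 and 3 of 8 at day 8. Of the pancreatic progenitor markers 4 of 6 and then 6 of 7 were higher, with sums of 2088 and 2356, then 1317 and 1951. By 2-fold or more 0 were higher at day 6 and 2 at day 8, Sox9 and Prox1. Pdx1 and Nkx6-1 lay under the floor in the day 8 control, with log2 differences of at least 0.06 and 0.25. Ptf1a lay under the floor with MPA at day 8 and was lower, by at least -0.59. Mnx1 made up 1518 (control) and 1225 (MPA) of the day 6 sums. Sox9, which acts in pancreatic progenitors and in other tissues, was 1.92-fold and 2.43-fold higher. The pluripotency sums were 4399 and 2933, then 5352 and 2919.8, with 3 of 6 and then 1 of 5 markers higher. The day 8 sums were carried by Sox2, at 4784 (control) and 2396 (MPA), while Pou5f1 was at 96 and 56.4.

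Several of these lists held genes that went opposite ways. In definitive endoderm 6 of 7 markers were higher with MPA at day 6 and 4 of 6 at day 8, where Foxa1 was higher by a log2 of 1.14 while Sox17 was lower by -1.68 and Cxcr4 by at least -2.40. In yolk sac and hepatic endoderm 5 of 6 were higher at day 6, and at day 8 only Ttr was, with 3 of 4 lower and a list median of -0.13. In trophoblast 4 of 5 were higher at day 6 and 3 of 5 at day 8, where Krt7 was higher by a log2 of 1.38 and Tfap2c lower by -0.87. In blood and endothelium 3 of 4 were higher at day 6, and at day 8 Runx1 was higher by a log2 of 1.99 and Kdr lower by at least -0.68. The part of these in the MPA differences of the members was not tested.

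A limma fit of the 4 arrays of days 6 and 8, with day and MPA as terms, gave 0 of 9 members past an adjusted p of 0.05. It has 1 residual degree of freedom. A gene's own error there is how far its MPA difference at day 6 lies from that at day 8. The fit draws this error toward those of the other genes fitted. The SE and p of a gene thus do not rest on its own gap alone. At an unadjusted p under 0.05 the fit gave 2 members, Peg3 and Mest, which is 2 of 9 against 6.37% of the 11599 genes fitted. After adjustment 1 gene passed, or 0.00862%, and it is no member. Peg3 had a log2 difference of 0.40 (SE 0.13) and an adjusted p of 0.683 in limma, higher at 2 of 2 days. Mest had a log2 difference of -0.55 (SE 0.19) and an adjusted p of 0.693 in limma, lower at 2 of 2 days. For the other 7 members the adjusted p in limma ran from 0.818 to 0.994.

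Meg3 showed the widest gap between the days, with a log2 MPA difference of -1.23 at day 6 and 0.57 at day 8. This difference between the days was not tested. The 11 Meg3 probe sets did not all go the same way at day 6. The 5 brightest were all lower with MPA, by a log2 from -0.85 to -1.24, and 2 of them were 2-fold or more lower. Of the other 6, 5 were measured, and 1 of these was lower, by a log2 of -0.17. The other 4 were higher, by a log2 of 0.53, 0.58, at least 0.64 and at least 0.996. The control lay under the floor for those marked "at least". At day 8 the 5 brightest were all higher with MPA, from 0.57 to 0.91, and so were 4 of the other 6, which ran from -0.11 to 1.19. The split at day 6 was seen after the values were known, and its cause was not tested.

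**Figure D3:**
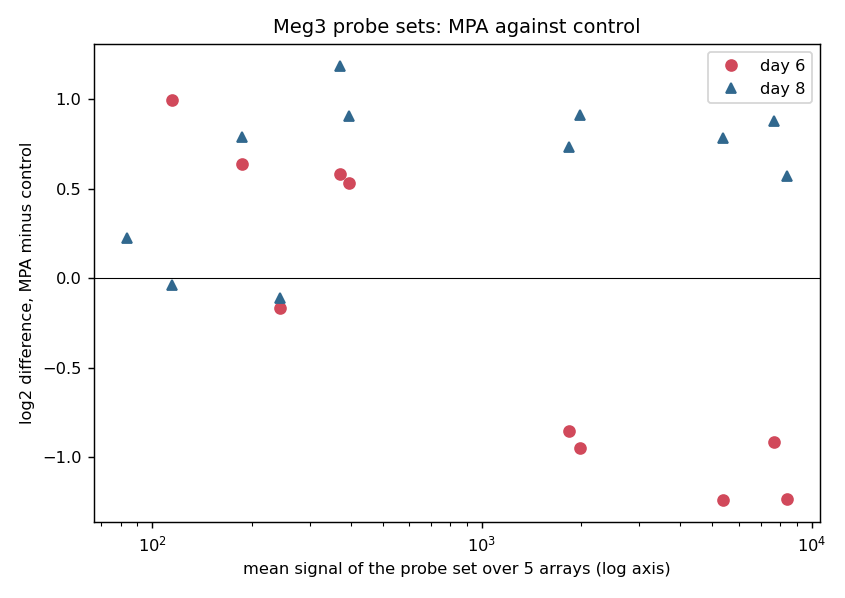
Log2 difference of MPA minus control for the Meg3 probe sets at day 6 (10 measured, circles) and day 8 (11, triangles), against the mean signal of the probe set over the 5 arrays (log axis). At day 6 the 5 brightest probe sets lie between -1.24 and -0.85 and 4 of the 5 dimmer ones lie above 0; at day 8 the 5 brightest lie between 0.57 and 0.91.

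Rian and Mirg are non-coding RNAs of the same maternally expressed cluster as Meg3, and Mirg hosts microRNAs. Rian, picked out once its values were known, had a signal of 18722 at day 5, 10477 (control) and 5809.96 (MPA) at day 6, and 9109 (control) and 9721 (MPA) at day 8. All 4 Rian probe sets were lower with MPA at day 6 and higher with MPA at day 8, and all 4 were lower at day 6 than at day 5 in the controls. Mirg had signals of 824, 255, 170.4, 161 and 537 in the same order, and both of its probe sets had the directions of Rian in these comparisons. Its main probe set had a log2 difference of -0.58 with MPA at day 6, and was 3.33-fold higher with MPA at day 8. Dlk1, the paternally expressed gene of this cluster, had another order, with both day 8 arrays highest. RefSeq annotates 2 genes with a start coordinate between those of Dlk1 and Meg3 on chromosome 12, and likewise 2 for Igf2 and H19 on chromosome 7. Genes that lie inside 1 of the pair can be among those counted.

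Airn, the antisense non-coding RNA that silences the paternal copy of Igf2r in the embryo, had a signal of 59 at day 5, 521 (control) and 731 (MPA) at day 6, and 929.5 (control) and 2618 (MPA) at day 8. Against day 5 the day 8 control was at least 10.7-fold higher, and all 5 Airn probe sets were higher at this step. Over the same step Igf2r was 1.32-fold lower on its main probe set, while its second probe set had a log2 difference of 0.07. With MPA at day 8 Airn was 2.82-fold higher, on 5 of 5 probe sets, beside the 1.01-fold difference of Igf2r. The 2 genes overlap, and 1 probe set annotated to both was left out.

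**Figure D4:**
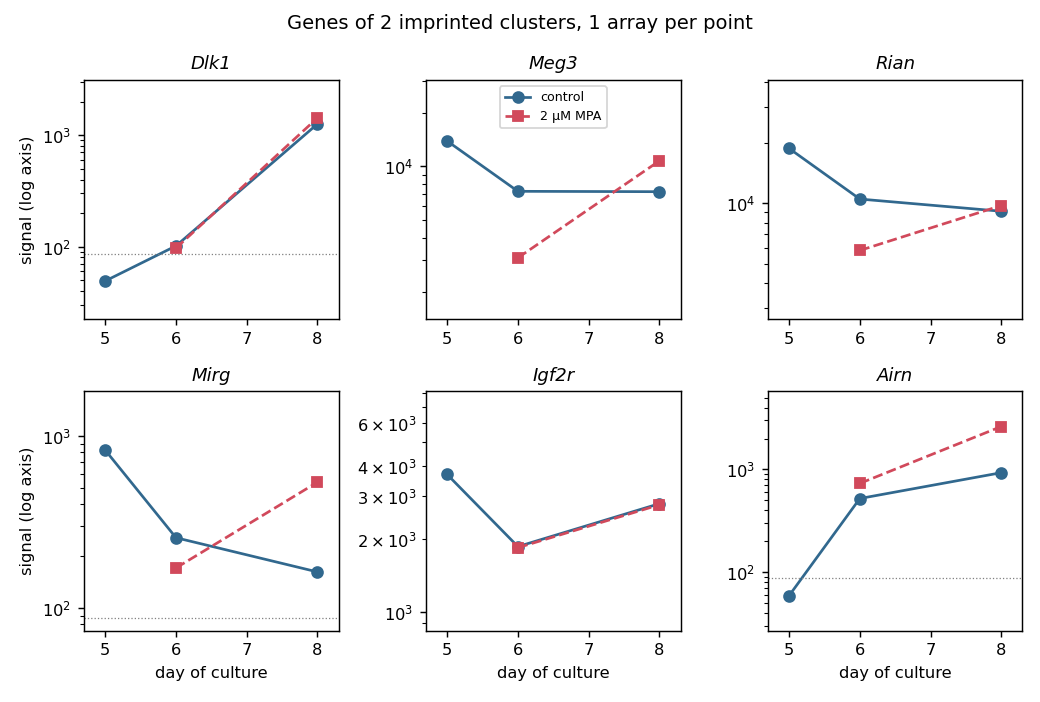
Array signal (log axis, a separate range in each panel) of the main probe sets of Dlk1, Meg3, Rian and Mirg and of Igf2r and Airn against the day of culture, with 1 array per point, controls as circles and 2 µM MPA as squares. Meg3, Rian and Mirg are lower with MPA at day 6 and higher with MPA at day 8, Dlk1 is at 1258 and 1425 at day 8, and Airn reaches 2618 with MPA at day 8 while Igf2r is at 2768 there and 2798 in the control.

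A further list held 51 other imprinted genes, of which 45 were on the array. With MPA at day 6, 5 of the 40 measured were 2-fold or more higher and 0 lower, beside 4.02% and 3.15% of all genes. These counts rest on the floor, since with the floor at the 25th percentile they were 10 and 4, and under either other scaling they were 4 and 1. At day 8, 6 of 39 were 2-fold or more higher and 1 lower (11 and 5 with the lower floor), beside 3.72% and 3.18% of all genes, the list median was a log2 of 0.14, and 31 of 39 were higher by any amount, beside 6058 of 12599 over all genes. Dcn, the gene of the matrix proteoglycan decorin, was 2.07-fold and 2.74-fold higher at days 6 and 8. Ddc, of the enzyme that makes dopamine and serotonin from their precursors, was 1.53-fold and 2.89-fold higher. Peg12, a paternally expressed gene, was 1.29-fold and 3.46-fold lower. In the controls from day 5 to day 8, 6 of 37 were 2-fold or more higher and 6 lower. All genes gave 9.61% and 7.27%, and the list gave 14 and 8 with the lower floor. Ddc was 5.66-fold higher over this interval, Mirg 5.10-fold lower and Phlda2, which restrains growth of the placenta, 3.43-fold lower. In the limma fit 0 of 37 passed in either direction after adjustment, and the lowest adjusted p was 0.584. An unadjusted limma p under 0.05 was reached by 4, beside 6.37% of all genes fitted.

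The IGF pathway list held 24 genes, 22 of them on the array. In the controls from day 5 to day 8, 6 of 21 measured were 2-fold or more higher and 4 lower, beside 9.61% and 7.27% of all genes, and with the mean over probe sets 3 were higher and 2 lower. Irs1, a substrate of the IGF and insulin receptors, was 4.10-fold higher, and the receptor adaptor genes Shc1 and Grb14 were 3.91-fold and 3.35-fold lower. Igfbp3, of the main IGF-binding protein of adult blood, was 7.07-fold lower, and it was already 8.61-fold lower at day 6. With MPA Igfbp3 was 1.78-fold higher after 1 day and 1.93-fold higher after 3 days, and both of its probe sets were higher at both days. Irs4, another receptor substrate, was 1.78-fold and 1.82-fold higher, although its dim second probe set had a log2 difference of -0.42 at day 6, where the MPA array lay under the floor. Pik3r1, of a regulatory subunit of PI3-kinase, was 1.62-fold and 1.39-fold higher, and the protease gene Htra1 was 1.16-fold and 1.79-fold higher.

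Of this list 0 of 18 were 2-fold or more higher and 2 lower with MPA at day 6. At day 8, 2 of 21 were 2-fold or more higher and 0 lower. The shares of all genes were 4.02% higher and 3.15% lower at day 6, and 3.72% and 3.18% at day 8. The 2 genes of the list were the same at both days, Igfbp2 and Igfbp5, which encode IGF-binding proteins. They were named after their values were seen. Their probe sets all end in _a_at or _s_at, so without such probe sets neither gene was measured. The list then had 0 genes 2-fold or more apart at either day, but it held neither of these 2 genes. With the mean over probe sets there were 1 higher and 1 lower at day 6 and 1 higher at day 8, and with the floor at the 25th percentile 1 was higher and 3 were lower at day 6. Igfbp2 had a signal of 15003 at day 5, 30816 (control) and 10909 (MPA) at day 6, and 5406 (control) and 11748 (MPA) at day 8. Igfbp5 had signals of 1759, 3687, 949, 4826.5 and 15964 in the same order, and its dim second probe set went the opposite way with MPA at both days. Both genes were therefore lower with MPA at day 6 and higher at day 8 on the main probe set. The receptor gene Igf1r, also named after its values were seen, was 2.08-fold higher at day 8 than at day 6 in the controls, and its 4 probe sets measured at that step were all higher. In the limma fit 0 of 20 genes of the list passed in either direction after adjustment, and the lowest adjusted p was 0.492. An unadjusted limma p under 0.05 was reached by 2, beside 6.37% of all genes fitted.

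Genes that keep imprints during cell division or bind imprinted regions made up the last list, of 16 genes with 14 on the array. With MPA, 0 of 13 measured were 2-fold or more apart at day 6 and 0 of 13 at day 8. All genes gave 7.17% and 6.91%. With the floor at the 25th percentile 2 of the list were 2-fold or more apart at each day. From day 5 to day 8 in the controls, 2 of 12 were 2-fold or more higher and 0 lower. All genes gave 9.61% and 7.27%, and with the mean over probe sets 0 of the list were either. Uhrf1, which brings the maintenance methyltransferase to newly copied DNA, was 2.13-fold higher over this interval, and with MPA it was 1.59-fold and 1.68-fold lower at days 6 and 8. Its second probe set had log2 differences of -0.23 over the interval and of 0.02 and 0.03 with MPA, so the probe sets disagree. Arid4a, of a chromatin protein, was 2.92-fold higher from day 5 to day 8, and with MPA 1.32-fold and 1.42-fold lower. Dnmt1, the maintenance methyltransferase itself, had a log2 difference of 0.59 from day 5 to day 8. With MPA it was 1.25-fold higher at day 6 and 1.27-fold lower at day 8, on 3 of 3 probe sets each time. Smchd1, a chromatin protein that acts in silencing, was 1.56-fold higher from day 5 to day 8. Cbx1, a heterochromatin protein, was 1.09-fold and 1.31-fold lower with MPA at days 6 and 8. Zfp57, which protects imprints in early embryos, lay above the floor on 2 of 5 arrays, with a highest signal of 118. In the limma fit 0 of 13 passed in either direction after adjustment, and the lowest adjusted p was 0.584. An unadjusted limma p under 0.05 was reached by 1, beside 6.37% of all genes fitted.

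The genes with the profile most like each member were found by the root mean square difference of log2 profiles over the 5 arrays, each centred on its own mean, among the 9091 genes above the floor on all arrays. Dlk1 was not above the floor on all arrays and has no such value. Igf2 and Peg3 were each other's nearest member, at 0.15 on the log2 scale. Igf2 ranked 2 of 9090 genes around Peg3, and Peg3 ranked 8 around Igf2. Closest to Igf2 were Parva, F3 and Fzd1, at 0.09, 0.09 and 0.11, and closest to Peg3 besides Igf2 were Hs3st3b1 and Met, at 0.13 and 0.16. Closest to Plagl1 were Lox, Auts2 and Col12a1, at 0.18, 0.23 and 0.24, and its nearest member, Peg3, ranked 36. The nearest member ranked 184 around Meg3, 813 around Mest, 2497 around Igf2r, 4237 around Grb10 and 5126 around Peg10.

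The members with small differences had many close genes. Grb10 was within 0.01 of Gng2, 0.04 of Lman1 and 0.04 of Rabl6, and Peg10 within 0.03 of Micall1, 0.04 of Tax1bp3 and 0.04 of Dnajc14. Igf2r was nearest to Rabep2, Gucy1a2 and Efr3b, at 0.07, 0.09 and 0.10, and Mest to Ints6, Zfp777 and Rpl22l1, at 0.13, 0.13 and 0.15. Meg3 had no gene closer than 0.25, the value for Stc2, followed by Ccnk at 0.25 and Idi1 at 0.26. These are descriptions over 5 arrays of 1 culture each, which share the array and its scaling.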

How the data were processed

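Labelled cRNA from each of 5 samples was hybridised to 1 Affymetrix 3' array, per the labels' protocols. The deposited values are intensities on a linear scale, which the authors made with MAS5, per the submitters' processing notes (version not given in the sources used here). Their trimmed mean, leaving out 2% at each end, was 500.0 on every array.

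Control probe sets (64 of 45101) were left out, as were those with several symbols (932) or none (9160) in the platform annotation. Of 34945 with 1 symbol, 34741 matched RefSeq (GRCm38.p6). Intensities under 86.8 were raised to that floor, then taken to log2. A comparison counted a gene as measured if either array lay above the floor. MPA was tested with limma 3.58.1 in R 4.3.3 (lmFit, eBayes with trend and robust, Benjamini-Hochberg over all genes fitted), keeping genes with 2 of the 4 arrays above the floor. The fit was tested on simulated data. Python 3.11.15, numpy 2.4.6, pandas 2.3.3 and matplotlib 3.10.9 did the rest.

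The text names all members, 3 nearest genes for each, and from each list up to 4 genes by mean MPA difference and 4 by control difference (day 8 against day 5). Members and lists were chosen with earlier results of these data known. Alternatives were 2 other scalings, 2 other floors, log2(signal + floor), 3 other choices of probe set, a 1.5-fold limit and 4 other limma settings.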

Additional observations from a re-analysis of the deposited data

Results flagged for a closer look

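Meg3 differed in direction between the days of MPA exposure, with a log2 difference from control of -1.23 at day 6 and 0.57 at day 8. Dlk1 did so too, at -0.07 and 0.18, both small. Its sign at day 6 turned with quantile normalization, to 0.07. Among the other imprinted genes, the IGF pathway and the imprint regulators, those at least 1.5-fold apart in opposite directions were Igfbp2 (-1.50 at day 6 and 1.12 at day 8), Igfbp5 (-1.96 and 1.73), Sfmbt2 (-0.96 and 0.87) and Zdbf2 (-0.71 and 0.78). All 5 of these genes other than Dlk1 were lower at day 6 and higher at day 8. The members entered at any size, and Meg3 was 1.49-fold apart at day 8, under the limit of the list genes. List genes left out by that limit went either way. Asb4 (1.43, then at least -0.43, with the MPA array under the floor) and Mcts2 (0.61 and -0.45) were higher and then lower. Nnat (-0.32 and 1.31) and Igf1r (-0.38 and 0.52) were lower and then higher. Marker genes past the limit of the list genes also went either way. Actc1 was lower (by at least -0.89) and then higher (1.82). Sox17 (1.16 and -1.68), Tfap2c (1.56 and -0.87) and Dppa4 (at least 1.73, then -0.63) were higher and then lower. Each value compares 1 array with 1 array, and the differences between the days were not tested.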

How the results depend on the processing

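The 4 members 2-fold or more higher from day 6 to day 8 in the controls were 4 under both other scalings, both other floors and log2(signal + floor). They were 3 with the mean over probe sets and 2 of 5 on the second probe set. Without probe sets ending in _s_at, _x_at or _a_at they were 3 of 7 measured, and Dlk1 was not among the 7. From day 5 to day 8 the count of 4 became 2 with the mean over probe sets, which takes in dim probe sets of Igf2 and Peg3, and 2 on the second probe set, and 5 with median centring, which adds Meg3 among the lower. From day 5 to day 6 the count of 0 became 1 with median centring (Igf2r), 1 with the floor at the 25th percentile (Dlk1), 1 with the mean over probe sets (Meg3) and 2 at 1.5-fold. The 1 member apart with MPA at day 6 became 0 with the mean over probe sets, 0 without the suffixed probe sets and 0 on the second probe set, and 3 at 1.5-fold. At day 8 the count of 0 became 1 at 1.5-fold. The share of all genes past 1.5-fold was not counted, so the member counts at that limit have no background beside them. The same holds for member and list counts with the other floors, log2(signal + floor) or the other choices of probe set.

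In limma 0 members passed an adjusted p of 0.05 under each of 11 alternatives, with the lowest member's adjusted p from 0.647 to 1. Signs turned for Igf2 from day 6 to day 8 on its dim second probe set (at least -0.44). In the limma fit they turned for Dlk1 with day as a straight line (-0.28), Meg3 with the mean over probe sets (0.19) and Plagl1 without the suffixed probe sets (0.68). The cause was not tested. No paired analysis was possible because each group holds 1 array, so no replicate number links samples; the limma fit itself compares MPA with control within each day, and without its day term 0 members passed as well. Counts for the further lists moved most with the floor at the 25th percentile, to 14 from 5 other imprinted genes 2-fold apart with MPA at day 6 and to 16 from 7 at day 8. The IGF pathway count with MPA went from 2 to 0 at both days without the suffixed probe sets. That setting leaves out every probe set of Igfbp2 and Igfbp5, so it does not bear on these genes. Signals near the floor limit Dlk1 before day 8, the second Igf2 and Plagl1 probe sets and Zfp57.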

Other observations

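Further imprinted growth genes, chosen after their values were seen, had profiles of their own. Cdkn1c, a maternally expressed inhibitor of the cell cycle, had a signal of 467 at day 5, 279.6 (control) and 804 (MPA) at day 6, and 769 (control) and 812 (MPA) at day 8. On its 1 probe set it was 2.87-fold higher after 1 day of MPA and 1.06-fold higher after 3 days. Ndn, of the growth-restraining protein necdin, had signals of 2702, 3788, 4773, 7476 and 7856 in the same order, and 6 of 6 probe sets measured were higher at day 8 than at day 5 in the controls. Sfmbt2, a paternally expressed gene needed in the placenta, had signals of 1288, 896, 460.5, 403 and 737, the lowest in the day 8 control.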
